A study of Homo sapiens with 15 samples.

Results

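Expression of 37 genes of cholesterol and fatty acid metabolism was followed in cells of the human acute myeloid leukaemia line OCI-AML5, after 2 drugs that act on BET proteins and after knockdown of the transcription factor RUNX1. The genes were chosen by name, as the enzymes of mevalonate and sterol synthesis, the regulators of SREBP, genes of sterol transport, the LXR receptors with their targets, and fatty acid enzymes. Both deposited tables listed all 37, among 19604 entries kept, and all 37 passed the filter of a mean of at least 1 FPKM (sequenced fragments scaled by transcript length and library size) in both fits. ABCG1 passed in the shRNA fit only through the RUNX1 shRNA group, where it was higher. Every group had 3 libraries of total RNA from cells grown with serum and the cytokine GM-CSF. Control cells received no treatment, and a vehicle is not named for them. OTX015 (1000 nM, 4 h) is a BET bromodomain inhibitor. ARV-825 (1000 nM, 4 h) carries the OTX015 structure at one end of a linker and a cereblon ligand at the other, and recruits that E3 ligase subunit to degrade BET proteins. The other experiment compared a non-targeting shRNA with a RUNX1 shRNA, each for 72 h. All 15 libraries came from 1 cell line and are described as biological triplicates, and how many shRNA sequences were used is not stated in the labels. Bulk values cannot tell fewer expressing cells from less RNA per cell.

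Cells sense sterols in the endoplasmic reticulum. When membrane cholesterol is low, SCAP escorts the SREBP precursors to the Golgi, where proteases release the transcription factors that switch on the enzymes of sterol and fatty acid synthesis, and INSIG proteins hold the SCAP complex back when sterols are plentiful. When oxysterols accumulate, the LXR receptors raise cholesterol exporters and MYLIP, a ubiquitin ligase that marks lipoprotein receptors for degradation. Dividing cells draw on this synthesis for membranes and for the isoprenoids that anchor small GTPases.

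The regulatory sequences of these genes are shown first, because SREBP acts together with the CCAAT-binding factor NF-Y at many of its promoters. RefSeq promoter windows (GRCh38.p14, 250 bases before to 50 bases after the start site) were found for 32 of the 37 genes. They were searched on both strands for the sterol regulatory element TCACNCCAC, the CCAAT box CCAAT, the E-box CACGTG and the LXR direct repeat, a pair of AGGTCA copies with 4 free bases between them. None of these motifs contains another. SREBF2 alone held the sterol element, which stood in 1.13% of all 35116 windows. CCAAT stood in the windows of 22 of the 32 genes (68.8%), against 42.3% of 14309 coding genes and 34.6% of all windows, CACGTG in 5 (15.6%, against 11% and 7.26%), and the direct repeat in 0 (0.0199% of all windows). Such matches are letters in a window, not measured binding. The windows below run 5′ to 3′ on the gene's strand, 30 bases each, with the motif in capitals (ATTGG is CCAAT on the opposite strand); they were picked for the sterol element of SREBF2 and for genes that rose after both drugs.
SREBF2 sterol element, chr22:41832962-41832991 (+): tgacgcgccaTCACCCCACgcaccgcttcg
TM7SF2 CCAAT box, chr11:65111786-65111815 (+): ccccgagcgccgATTGGctggtgtgctggg
MVD CCAAT box, chr16:88663159-88663188 (-): ggctcgcacgggCCAATcctgtggtagcgc
IDI1 CCAAT box, chr10:1048956-1048985 (-): ctggcgcgagcgATTGGctgcgcggcccgg
STARD4 CCAAT box, chr5:111512679-111512708 (-): atttatcggccaCCAATcagccctccacac
INSIG1 CCAAT box, chr7:155297696-155297725 (+): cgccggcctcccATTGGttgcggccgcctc
INSIG1 E-box, chr7:155297811-155297840 (+): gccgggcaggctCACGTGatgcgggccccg
SC5D E-box, chr11:121292628-121292657 (+): gcgcgcggcgccCACGTGaccgcggagagc

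Summed FPKM lay between 554570 and 656995, with 10496 to 10927 genes at 1 FPKM or more in each library, and read depth is unknown. The median gene was lower in ARV-825 libraries (1.8 to 1.92 FPKM) than in OTX015 (2.06 to 2.1) or control libraries (2.15 to 2.2). Of 10 markers of myeloid leukaemia cells, 9 had a mean of at least 1 FPKM in each table, led by lysozyme (LYZ). Summed, these markers reached 997 to 1068 FPKM in control libraries, 693 to 726 in ARV-825 libraries and 612 to 622 in OTX015 libraries. The non-targeting shRNA libraries held 975 to 1004 FPKM and the RUNX1 shRNA libraries 858 to 883. LYZ, at a mean of 493 FPKM over the drug libraries and 454 over the shRNA libraries, weighs most in these sums. Single markers did not all follow them. With the RUNX1 shRNA, mean CD34 went from 15.3 to 29.8 FPKM and CD33 from 62.3 to 71.7. SPI1 fell from 159 to 143 FPKM and MPO from 2.44 to 0.903. After ARV-825 mean MPO went from 1.01 to 1.40 FPKM, while CD33, SPI1 and CD34 were lower. The part of these shifts in the results below was not tested. Markers of adipocytes, which make much lipid, and of fibroblasts were all below 1 FPKM, with LUM and DCN at 0 in every library. Of 6 hepatocyte markers only SERPINA1, which monocytes also express, reached 1 FPKM. So did EPOR among 5 erythroid markers and, in the drug table, CD8A among the T cell markers. HEXIM1, a gene commonly used to read BET inhibition, stood at 10.3, 12.1 and 11.4 FPKM in control, 92.8, 90.004 and 93.3 with OTX015 and 50.7, 51.1 and 47.1 with ARV-825, so both drug groups lay above control. The titles of the RUNX1 shRNA libraries name Runx3. RUNX1 itself stood at 69.8, 72.2 and 69.8 FPKM with the non-targeting shRNA and 37.2, 42.9 and 36.0 with the RUNX1 shRNA, and RUNX3 at 27.5, 28.5 and 25.0 FPKM with the non-targeting shRNA and 28.0, 27.9 and 29.3 with the RUNX1 shRNA. RUNX1 was lower in all 3 libraries of the shRNA group, by 0.85 ± 0.059 (SE) on the log2 scale (adjusted p = 3.71e-05), as its treatment label states.

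In untreated cells the levels of the 37 genes ran from 1.42 to 202 FPKM, with a median of 23.6. Squalene synthase FDFT1 and farnesyl diphosphate synthase FDPS, on either side of the branch point between sterols and other isoprenoids, were highest at 202 ± 6.76 and 201 ± 3.79 FPKM (mean ± SD, n = 3 libraries per group), and did not differ beyond their spread. They were followed by the sterol reductase LBR at 97.4 ± 4.73, fatty acid synthase FASN at 82.0 ± 3.83, and the desaturases FADS2 and SCD at 68.0 ± 2.02 and 67.7 ± 2.68 FPKM, of which FADS2 and SCD overlapped. At the low end were the cholesterol exporter ABCG1 at 3.89 ± 0.299, mevalonate kinase MVK at 3.78 ± 0.151 and the LXR receptor NR1H3 at 1.42 ± 0.217 FPKM. Of the 37 genes, 26 lay above the median of the 10769 genes at 1 FPKM or more in control, with NR1H2 (32.3 FPKM) far above the other LXR gene, NR1H3. Replicates were close: the median coefficient of variation of the 37 genes was 4.67% in control, 4.54% with OTX015 and 5.95% with ARV-825, against 5.05%, 5.75% and 6.97% for all genes at 1 FPKM or more, and NR1H3 with ARV-825 was the least even at 37.7%.

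**Figure D1:**
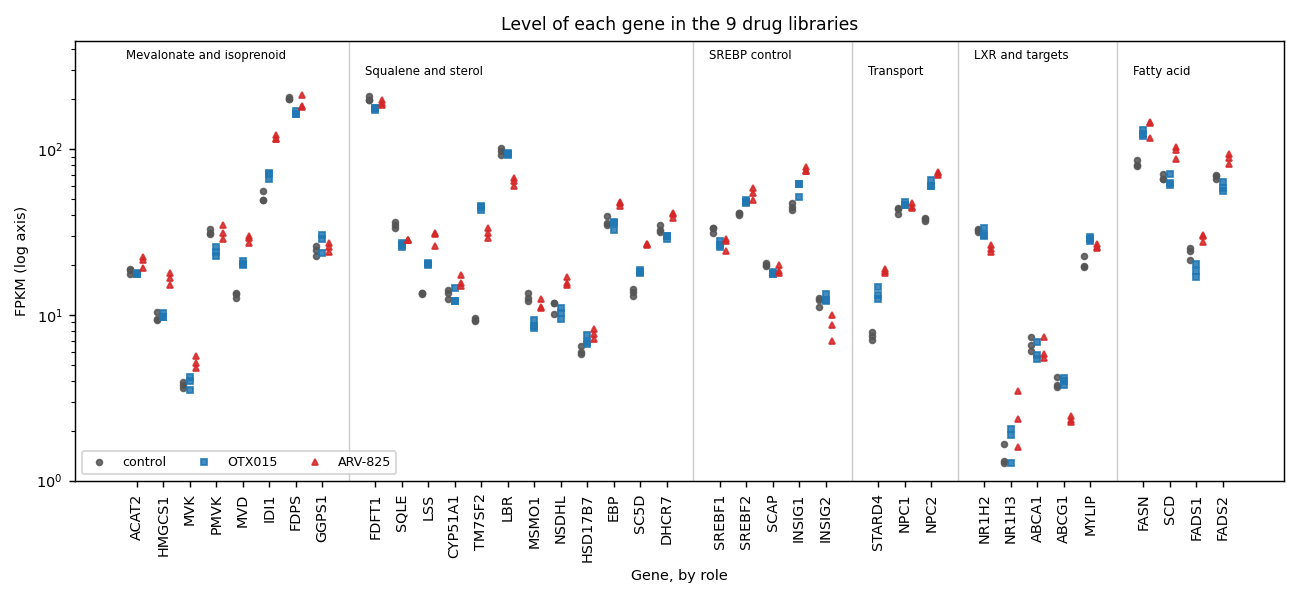
FPKM of each of the 37 genes (log axis) in the 9 drug libraries, 3 points per group, ordered by role. TM7SF2, MVD, LSS and STARD4 show 3 separate clusters of points, while FDFT1 and FDPS are the highest of all.

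The first comparisons asked how sterol and lipid genes responded within 4 h of each drug. After ARV-825, 23 of the 37 genes rose and 6 fell, in limma on log2(FPKM + 1) with Benjamini-Hochberg adjustment over 10819 tested genes. In all tested genes 74.2% were called, close to the 78.4% of the members, yet 35.8% rose and 38.4% fell, against 62.2% and 16.2% of the members. The median log2 change of the members was 0.30, and that of all tested genes was -0.008. After OTX015, 13 rose and 10 fell (35.1% and 27%), near the background of 36.1% and 33.5% (69.6% called in all), with a median of 0.018 against 0.032. Groups did not overlap for 28 of 37 genes after ARV-825 and 23 after OTX015, against 76.2% and 75.3% of tested genes. Log2 changes of at least 0.5 were called upwards in 11 members and downwards in 2 after ARV-825 (16.8% and 21.9% of tested genes), and in 6 and 1 after OTX015 (15.3% and 16.4%). Both comparisons use the same control libraries. The rise of cholesterol synthesis genes after ARV-825 was known when the genes were chosen, so these shares are a description.

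**Figure D2:**
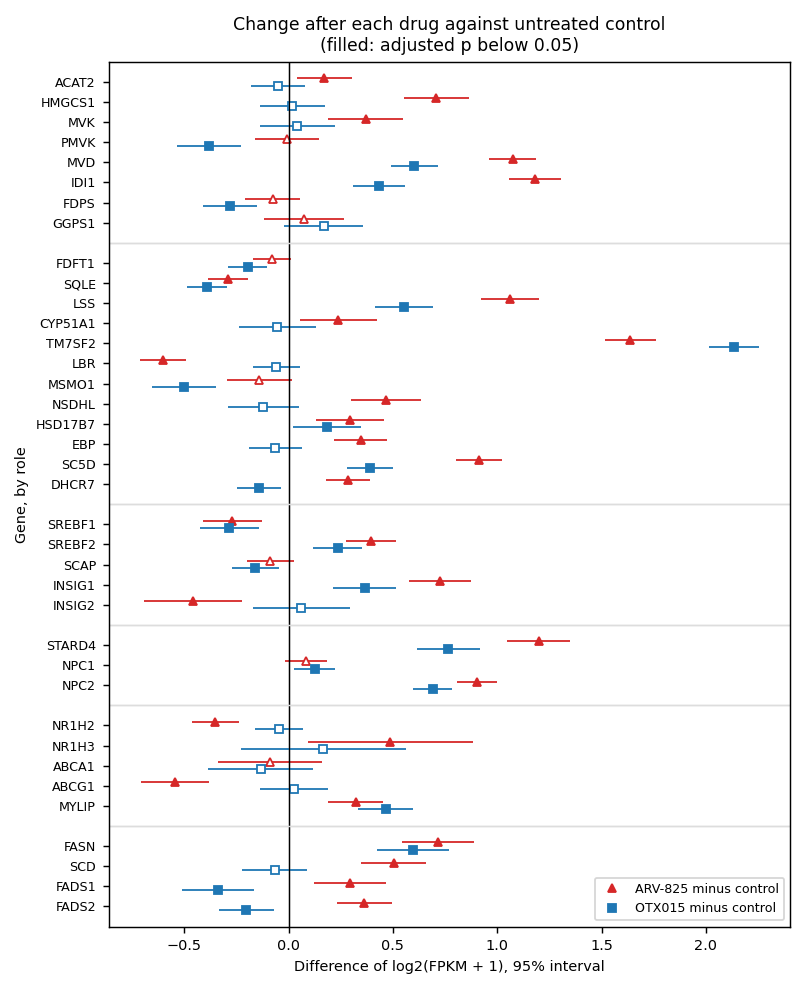
Difference of log2(FPKM + 1) from control with its 95% interval for ARV-825 (triangles) and OTX015 (squares), genes ordered by role, filled where adjusted p is below 0.05. TM7SF2 lies farthest to the right with both drugs (1.64 and 2.14), and the FADS1 and FADS2 pairs lie on opposite sides of 0.

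Of the 8 genes of the mevalonate and isoprenoid part, 5 rose and 0 fell after ARV-825, and 2 rose and 2 fell after OTX015. The shares were 62.5% and 0% after ARV-825 (35.8% and 38.4% of all tested genes). After OTX015 they were 25% and 25% (36.1% and 33.5% of all tested genes). IDI1, the isomerase that balances the 2 isoprenoid building blocks, stood at 55.6, 49.0 and 49.1 FPKM in control, 66.1, 70.4 and 72.1 with OTX015 and 122, 114 and 115 with ARV-825. All 3 groups were apart, in the order control, OTX015, ARV-825. Its log2 change was 1.18 ± 0.056 (SE) after ARV-825 and 0.43 ± 0.056 after OTX015 (adjusted p = 1.87e-08 and 4.59e-05). MVD, which makes isopentenyl diphosphate, stood at 13.5, 12.6 and 13.4 FPKM in control, 21.0, 20.3 and 20.0 with OTX015 and 29.2, 27.3 and 29.7 with ARV-825. Again no groups overlapped, with changes of 1.07 ± 0.051 and 0.60 ± 0.051 (adjusted p = 1.73e-08 and 1.77e-06). HMGCS1, the synthase that opens the pathway to mevalonate, stood at 10.5, 9.50 and 9.25 FPKM in control, 9.69, 9.66 and 10.2 with OTX015 and 17.9, 16.6 and 15.1 with ARV-825. Here only the ARV-825 libraries stood apart, by 0.71 ± 0.071 (SE, adjusted p = 4.69e-06), while the change after OTX015 was 0.018 (95% interval -0.14 to 0.17, adjusted p = 0.836).

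The other 5 mevalonate genes changed by less. MVK, which phosphorylates mevalonate, rose from 3.78 ± 0.151 to 5.17 ± 0.418 FPKM after ARV-825 (0.37, adjusted p = 0.0018), and ACAT2, the thiolase of the first step, from 18.4 ± 0.652 to 20.9 ± 1.61 FPKM (0.17, adjusted p = 0.0213). PMVK, the next kinase, fell after OTX015 from 31.7 ± 1.12 to 24.1 ± 1.55 FPKM (-0.38, adjusted p = 0.00053) and was 31.5 ± 2.96 with ARV-825. FDPS fell after OTX015 by 0.28 on the log2 scale (adjusted p = 0.00143), and its change after ARV-825 was -0.077 (adjusted p = 0.251). GGPS1, which makes geranylgeranyl diphosphate, was not called after either drug (0.074 and 0.17, adjusted p = 0.454 and 0.104). The ACAT2 call was lost without ARV-825 replicate 1, without ARV-825 replicate 3 or without control replicate 1 (adjusted p = 0.057 to 0.097), FDPS was called lower after ARV-825 without ARV-825 replicate 1 (adjusted p = 0.00818), and GGPS1 higher after OTX015 without OTX015 replicate 3 (adjusted p = 0.00662). In GENCODE 29, other genes on the opposite strand cover 52.3% of the exonic bases of ACAT2, 18.6% of FDPS, 15% of HMGCS1 and 14.8% of IDI1. Reads there cannot be assigned without strand. A gene on the same strand covers 37.3% of GGPS1, where strand would not separate the reads. FDPS has 8 named pseudogenes.

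The 12 squalene and sterol genes held the largest rise. After ARV-825, 8 rose and 2 fell (66.7% and 16.7%, against 35.8% and 38.4% of all tested genes). After OTX015, 4 rose and 4 fell (33.3% each, near the 36.1% and 33.5% of all tested genes). TM7SF2, a reductase of the sterol ring, stood at 9.55, 9.13 and 9.30 FPKM in control, 45.2, 45.0 and 42.9 with OTX015 and 31.3, 33.3 and 28.9 with ARV-825. All groups were apart, and OTX015 gave the highest values. The log2 change was 2.14 ± 0.055 (SE, adjusted p = 5.86e-10) after OTX015, where the mean was 4.76 times control, and 1.64 ± 0.055 (SE, adjusted p = 1.99e-09) after ARV-825. LBR, an inner nuclear membrane protein with the same reductase activity, stood at 92.4, 102 and 97.9 FPKM in control, 93.7, 91.6 and 94.6 with OTX015 and 64.4, 67.0 and 59.9 with ARV-825. It fell after ARV-825 (-0.60 ± 0.05 SE, adjusted p = 1.18e-06), with a change of -0.06 after OTX015 (95% interval -0.17 to 0.052). By mean FPKM, which is per length, TM7SF2 stood at 9.58% of the LBR level in control, 47.5% with OTX015 and 48.9% with ARV-825.

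LSS and SC5D followed the pattern of IDI1. LSS, which closes the sterol ring, stood at 13.6, 13.5 and 13.4 FPKM in control, 20.3, 19.8 and 20.6 with OTX015 and 30.7, 31.1 and 26.1 with ARV-825. SC5D, a late desaturase, stood at 13.8, 14.4 and 12.9 FPKM in control, 18.0, 18.7 and 18.0 with OTX015 and 26.8, 26.3 and 26.6 with ARV-825. No groups overlapped for either gene, and ARV-825 gave the highest values. LSS changed by 1.06 ± 0.063 after ARV-825 and 0.55 ± 0.063 after OTX015 (adjusted p = 8.75e-08 and 1.78e-05), and SC5D by 0.91 ± 0.049 and 0.39 ± 0.049 (adjusted p = 4.44e-08 and 3.89e-05).

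MSMO1 and NSDHL remove methyl groups from the ring, and they parted. MSMO1 stood at 13.6, 12.04 and 12.7 FPKM in control, 8.35, 9.29 and 8.55 with OTX015 and 11.1, 11.01 and 12.4 with ARV-825. It fell after OTX015 (-0.50 ± 0.07 SE, adjusted p = 8.16e-05), while its change after ARV-825 was -0.14 (adjusted p = 0.0917), called without ARV-825 replicate 3 (adjusted p = 0.0317). NSDHL stood at 10.1, 11.7 and 11.8 FPKM in control, 10.9, 10.3 and 9.49 with OTX015 and 17.0, 15.2 and 15.5 with ARV-825. It rose after ARV-825 (0.47 ± 0.076 SE, adjusted p = 0.000207), and its change after OTX015 was -0.12 (adjusted p = 0.178), called lower without control replicate 1 (adjusted p = 0.049).

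SQLE, the epoxidase that commits squalene to sterols, fell from 34.9 ± 1.31 to 28.3 ± 0.0823 FPKM after ARV-825 and 26.4 ± 0.727 after OTX015 (log2 changes -0.29 and -0.39, adjusted p = 9.77e-05 and 1.36e-05). It was the one enzyme of sterol synthesis called lower after ARV-825 other than LBR. FDFT1 fell after OTX015 (-0.20, adjusted p = 0.00157) and changed by -0.079 (adjusted p = 0.109) after ARV-825, called lower without ARV-825 replicate 1 (adjusted p = 0.0464). EBP, a sterol isomerase, rose after ARV-825 from 36.5 ± 2.37 to 46.6 ± 1.26 FPKM (0.34, adjusted p = 0.000231). DHCR7, which carries out a last step to cholesterol, rose after ARV-825 from 32.8 ± 1.65 to 40.1 ± 1.38 FPKM (0.28, adjusted p = 0.000273) and fell to 29.6 ± 0.644 after OTX015 (-0.14, adjusted p = 0.0204). HSD17B7, a ketoreductase, rose after ARV-825 (0.29, adjusted p = 0.00405) and OTX015 (0.19, adjusted p = 0.043), and CYP51A1, a demethylase, after ARV-825 (0.24, adjusted p = 0.0227). The OTX015 call was lost for DHCR7 without OTX015 replicate 1 or without control replicate 1 (adjusted p = 0.0723 and 0.0779), and for HSD17B7 with no filter on low values, after median-ratio rescaling, with the replicate block, without OTX015 replicate 1, without OTX015 replicate 3, without control replicate 2 or without control replicate 3 (adjusted p = 0.0538 to 0.163). The ARV-825 call of CYP51A1 was lost without ARV-825 replicate 2 or without control replicate 3 (adjusted p = 0.0855 and 0.0884). Other genes on the same strand cover 79.4% of CYP51A1 exonic bases, and CYP51A1 and HSD17B7 have 3 and 2 named pseudogenes, so their values are uncertain.

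Among the 5 genes of SREBP control, 2 rose and 2 fell after each drug. That is 40% each way, near the background of 35.8% up and 38.4% down after ARV-825 and 36.1% and 33.5% after OTX015. SREBF2, whose product drives sterol synthesis, stood at 39.8, 41.3 and 41.2 FPKM in control, 49.2, 47.5 and 47.6 with OTX015 and 57.8, 54.6 and 49.6 with ARV-825. SREBF1, whose products favour fatty acid synthesis, stood at 31.0, 33.4 and 33.4 FPKM in control, 25.7, 26.2 and 27.9 with OTX015 and 28.6, 27.8 and 24.4 with ARV-825. The 2 genes moved in opposite directions with both drugs, with all treated libraries above control for SREBF2 and below it for SREBF1. SREBF2 rose by 0.40 after ARV-825 and 0.23 after OTX015 (adjusted p = 5.06e-05 and 0.00245), and SREBF1 changed by -0.27 and -0.28 (adjusted p = 0.00264 and 0.00211).

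The retention factors also parted. INSIG1, itself a classical SREBP target, stood at 47.0, 42.9 and 44.6 FPKM in control, 51.5, 61.1 and 61.9 with OTX015 and 77.5, 73.3 and 73.4 with ARV-825. Its groups were all apart, at 0.72 ± 0.068 (SE, adjusted p = 2.74e-06) after ARV-825 and 0.36 ± 0.068 (SE, adjusted p = 0.000631) after OTX015. INSIG2 stood at 11.2, 12.2 and 12.6 FPKM in control, 13.4, 12.04 and 12.2 with OTX015 and 8.74, 9.96 and 6.92 with ARV-825. It fell after ARV-825 (-0.46 ± 0.106 SE, adjusted p = 0.0024), and its OTX015 libraries overlapped control (0.061, 95% interval -0.17 to 0.30). SCAP, the escort of both SREBPs, stood at 19.9, 20.4 and 19.7 FPKM in control, 17.6, 18.0 and 17.7 with OTX015 and 20.0, 17.9 and 18.4 with ARV-825. It fell after OTX015 (-0.16, adjusted p = 0.0162), a call lost without control replicate 2 (adjusted p = 0.0578), and changed by -0.088 (adjusted p = 0.141) after ARV-825, called lower without ARV-825 replicate 1 (adjusted p = 0.0442).

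**Figure D3:**
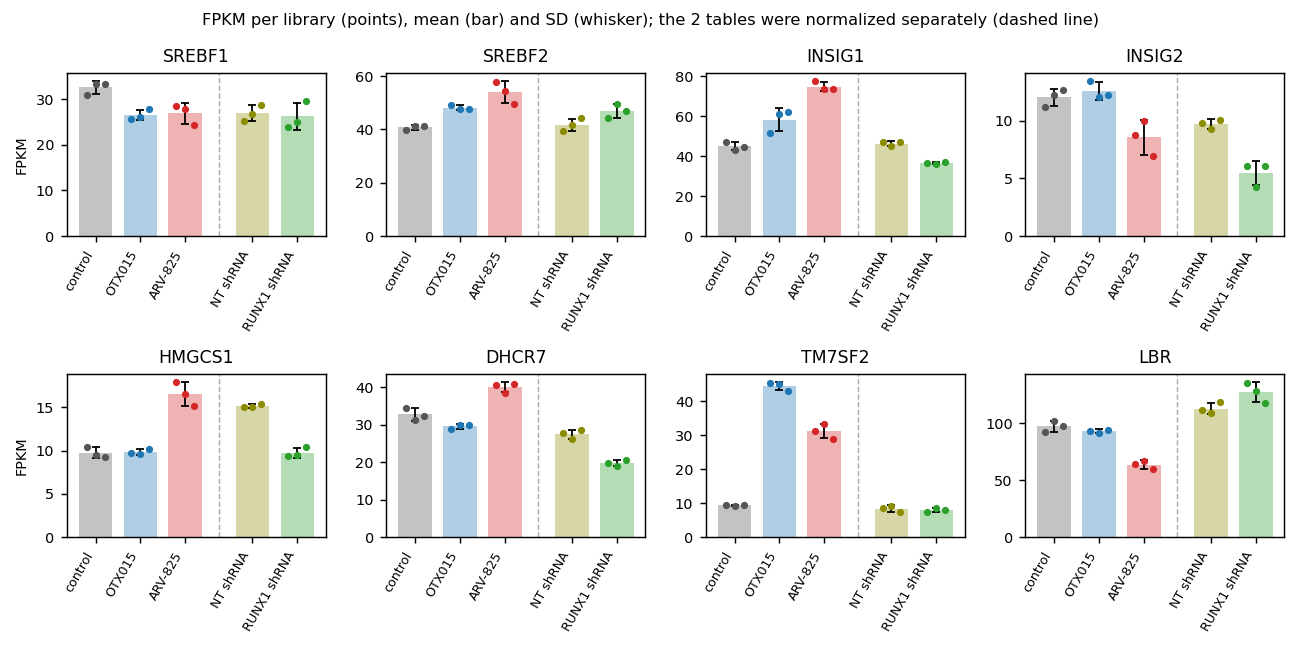
FPKM per library (points), mean (bars) and SD (whiskers, n = 3) of 8 genes in the 5 groups, with the separately normalized tables on either side of the dashed line. INSIG1 and INSIG2 move apart with ARV-825 and both are lower with the RUNX1 shRNA, and TM7SF2 is highest with OTX015.

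Of the 3 genes of sterol transport, 2 rose after ARV-825 and all 3 after OTX015, and none fell. Of all tested genes 35.8% rose and 38.4% fell after ARV-825, and 36.1% and 33.5% after OTX015. STARD4, which shuttles cholesterol between membranes, stood at 7.91, 7.01 and 7.50 FPKM in control, 12.4, 13.2 and 14.6 with OTX015 and 19.0, 18.4 and 18.0 with ARV-825. NPC2, which hands cholesterol to NPC1 inside lysosomes, stood at 37.0, 38.2 and 37.9 FPKM in control, 65.0, 59.6 and 59.8 with OTX015 and 72.2, 70.0 and 71.8 with ARV-825. Control was lowest and ARV-825 highest for both, with no overlap. STARD4 changed by 1.20 ± 0.068 after ARV-825 and 0.76 ± 0.068 after OTX015 (adjusted p = 6.15e-08 and 2.72e-06), and NPC2 by 0.90 ± 0.043 and 0.69 ± 0.043 (adjusted p = 1.76e-08 and 1.81e-07). NPC1, the membrane partner of NPC2, was nearly flat at 42.8 ± 1.88 FPKM in control, 45.3 ± 1.47 with ARV-825 (0.083, adjusted p = 0.119) and 46.7 ± 1.09 with OTX015 (0.12, adjusted p = 0.0295). The OTX015 call of NPC1 was lost after median-ratio rescaling, without a mean-variance trend, with the replicate block, without OTX015 replicate 2 or without control replicate 2 (adjusted p = 0.0533 to 0.123).

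The 5 LXR genes did not move as 1 group: after ARV-825, 2 rose and 2 fell, and after OTX015, 1 rose and 0 fell. The 40% each way after ARV-825 lies near the 35.8% and 38.4% of all tested genes. After OTX015 the shares of 20% and 0% stand against 36.1% and 33.5%. NR1H2, the broadly expressed LXR, stood at 31.7, 32.5 and 32.7 FPKM in control, 33.3, 30.5 and 30.1 with OTX015 and 24.9, 24.1 and 26.4 with ARV-825. It fell after ARV-825 (-0.35 ± 0.052 SE, adjusted p = 9.64e-05), while OTX015 and control overlapped (-0.046, adjusted p = 0.444). NR1H3, the LXR typical of macrophages and liver, stood at 1.31, 1.29 and 1.67 FPKM in control, 1.88, 2.04 and 1.28 with OTX015 and 1.60, 2.37 and 3.45 with ARV-825. The lowest ARV-825 value lay within the control range, and the call of the change of 0.49 ± 0.178 (SE, adjusted p = 0.0285) was lost with no filter on low values, without ARV-825 replicate 2, without ARV-825 replicate 3, without control replicate 1 or without control replicate 2 (adjusted p = 0.0525 to 0.105).

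Of the LXR targets, ABCG1 stood at 3.65, 4.23 and 3.80 FPKM in control, 4.15, 3.98 and 3.79 with OTX015 and 2.46, 2.33 and 2.27 with ARV-825. ARV-825 alone stood apart, below the rest (-0.54 ± 0.074 SE, adjusted p = 5.27e-05). ABCA1, which loads cholesterol onto apolipoprotein particles, stood at 7.395, 6.56 and 6.07 FPKM in control, 5.43, 5.72 and 6.86 with OTX015 and 5.53, 7.4001 and 5.80 with ARV-825. Its groups overlapped throughout, with changes of -0.089 and -0.13 (adjusted p = 0.491 and 0.311). MYLIP stood at 22.7, 19.6 and 19.5 FPKM in control, 28.8, 29.6 and 28.0 with OTX015 and 25.8, 25.4 and 26.6 with ARV-825. It rose after both drugs, by 0.32 (adjusted p = 0.000572) after ARV-825 and 0.47 (adjusted p = 4.36e-05) after OTX015, with control lowest.

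All 4 fatty acid enzymes rose after ARV-825, and after OTX015 FASN rose while FADS1 and FADS2 fell. Of all tested genes 35.8% rose after ARV-825, and 36.1% rose and 33.5% fell after OTX015. FASN, which builds palmitate, stood at 86.3, 80.5 and 79.0 FPKM in control, 119.8, 123.2 and 129.9 with OTX015 and 146, 144 and 117 with ARV-825. Both drug groups lay above control and overlapped each other, with changes of 0.72 ± 0.078 and 0.60 ± 0.078 (adjusted p = 9.4e-06 and 5.07e-05). SCD, which makes monounsaturated fatty acids, stood at 70.7, 66.4 and 65.8 FPKM in control, 60.7, 62.6 and 70.7 with OTX015 and 99.2, 103 and 87.3 with ARV-825. ARV-825 was apart from control (0.50 ± 0.071 SE, adjusted p = 6.93e-05), with a change of -0.067 after OTX015 (adjusted p = 0.417).

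FADS1 and FADS2 are neighbouring genes whose products desaturate polyunsaturated fatty acids. FADS1 stood at 21.3, 24.2 and 25.3 FPKM in control, 18.3, 16.9 and 20.2 with OTX015 and 29.7, 30.3 and 27.4 with ARV-825. FADS2 stood at 65.7, 68.6 and 69.7 FPKM in control, 56.1, 62.9 and 57.9 with OTX015 and 93.7, 88.4 and 81.2 with ARV-825. For both, ARV-825 was highest, control in between and OTX015 lowest, with no overlap. FADS1 changed by 0.30 (adjusted p = 0.00531) after ARV-825 and -0.34 (adjusted p = 0.00259) after OTX015, and FADS2 by 0.36 (adjusted p = 0.000217) and -0.20 (adjusted p = 0.0104). SCD and FADS2 have 1 named pseudogene each, so their values carry some uncertainty too.

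ARV-825 and OTX015 were then compared directly, as the 1 pair of related compounds at equal dose and time, in a contrast that takes no control level, although the control libraries share its estimate of the spread and its filter. ARV-825 gave the higher level in 22 of the 37 genes and the lower in 5. All tested genes leaned the other way, with 24.7% higher and 33.4% lower (58.1% called), against 59.5% and 13.5% of the members. The median difference was 0.22 on the log2 scale for the members and -0.04 for all tested genes. The lean of all tested genes depended on the scaling. After median-ratio rescaling their median was -0.00039, and 49.6% of the called genes were higher, against 42.5% before. The median of the members was then 0.26. Differences of at least 0.5 were called higher in 8 members and lower in 3, against 6.79% and 11.9% of tested genes. Groups did not overlap for 29 members, against 62% of tested genes. Adjusted p-values are over all 10819 genes.

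The degrader exceeded the parent inhibitor most at IDI1 (0.74 ± 0.056 SE, adjusted p = 3.83e-06) and HMGCS1 (0.69 ± 0.071 SE, adjusted p = 2.18e-05), then at FADS1 (0.64, adjusted p = 6.8e-05), NSDHL (0.59, adjusted p = 9.41e-05), SCD (0.57, adjusted p = 7.31e-05), FADS2 (0.56, adjusted p = 2.49e-05), SC5D (0.52, adjusted p = 1.35e-05) and LSS (0.51, adjusted p = 7.21e-05). By role, ARV-825 was higher in 7 of 8 mevalonate, 8 of 12 sterol, 2 of 5 SREBP control, 2 of 3 transport, 0 of 5 LXR and 3 of 4 fatty acid genes. INSIG1 differed by 0.36 and STARD4 by 0.43. PMVK (0.37), MSMO1 (0.36) and DHCR7 (0.43) were also higher with ARV-825, and all 3 had fallen after OTX015. OTX015 gave the higher level at ABCG1 (-0.57 ± 0.074 SE, adjusted p = 9.91e-05), LBR (-0.54 ± 0.05 SE, adjusted p = 1.16e-05), INSIG2 (-0.52 ± 0.106 SE, adjusted p = 0.00173), TM7SF2 (-0.50 ± 0.055 SE, adjusted p = 3.41e-05) and NR1H2 (-0.30 ± 0.052 SE, adjusted p = 0.000536). Of the 12 genes that rose after both drugs, TM7SF2 was the one called higher with OTX015.

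For 10 genes the compounds were not told apart, which does not show that they act alike. The 95% intervals are not adjusted for the number of genes, and those of SQLE and MYLIP leave out 0. The 95% intervals of the difference were -0.13 to 0.15 for SREBF1, -0.041 to 0.18 for SCAP, -0.14 to 0.058 for NPC1, -0.053 to 0.29 for FASN, -0.056 to 0.27 for HSD17B7, -0.28 to 0.10 for GGPS1, 0.0029 to 0.19 for SQLE, -0.28 to -0.013 for MYLIP, -0.21 to 0.30 for ABCA1 and -0.073 to 0.72 for NR1H3. FASN was called without ARV-825 replicate 3 (adjusted p = 0.00516), NR1H3 without ARV-825 replicate 1 (adjusted p = 0.019), and GGPS1 without OTX015 replicate 3 (adjusted p = 0.0377), lower with ARV-825. SREBF2 was called (0.16, adjusted p = 0.0242) but not without ARV-825 replicate 1, without ARV-825 replicate 2, without OTX015 replicate 2 or without OTX015 replicate 3 (adjusted p = 0.0584 to 0.105). FDFT1 was called (0.12, adjusted p = 0.0322) but not without a mean-variance trend, with the replicate block, without ARV-825 replicate 1, without ARV-825 replicate 3, without OTX015 replicate 1 or without OTX015 replicate 2 (adjusted p = 0.0519 to 0.0998). SQLE was called with no filter on low values or after median-ratio rescaling (adjusted p = 0.0494 and 0.0159), and MYLIP with only the groups compared in the fit (adjusted p = 0.0285).

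**Figure D4:**
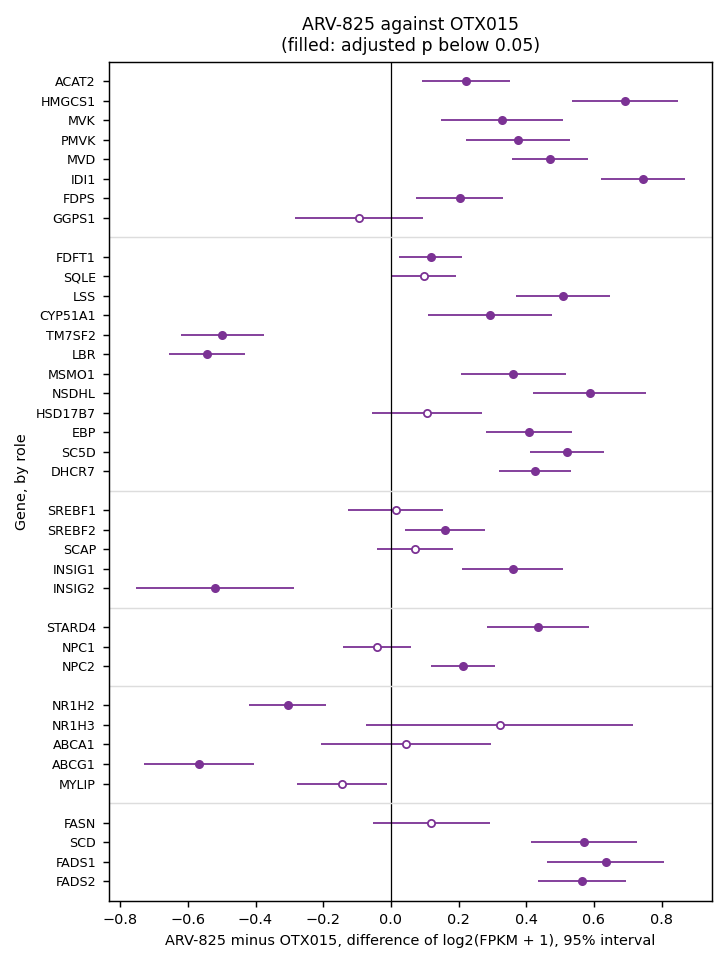
ARV-825 minus OTX015 in log2(FPKM + 1) with its 95% interval, genes ordered by role, filled where adjusted p is below 0.05. Of 37 genes, 22 are called to the right of 0 and 5 to the left (LBR, TM7SF2, INSIG2, NR1H2 and ABCG1).

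In the shRNA experiment, which asked what a partial knockdown of RUNX1 changes over 72 h, the genes leaned downwards. With the RUNX1 shRNA 13 of the 37 genes fell and 3 rose, that is 35.1% and 8.11%. Among 10925 tested genes 27.4% were called, 13.8% lower and 13.5% higher. The median log2 change was -0.065 for the members and -0.009 for all tested genes. By role, 5 of 8 mevalonate genes fell and 0 rose, and 5 of 12 sterol genes fell and 1 rose. Of the SREBP control genes 2 fell and 1 rose, of the fatty acid genes 1 fell and 1 rose, and no transport or LXR gene was called. Changes were small: a fall of at least 0.5 was called in 2 members and a rise of that size in 0, against 1.63% and 1.6% of tested genes. Groups did not overlap for 21 of 37 genes, against 44.1% of tested genes.

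HMGCS1 stood at 15.01, 15.1 and 15.4 FPKM with the non-targeting shRNA and 9.35, 9.51 and 10.4 with the RUNX1 shRNA. All 3 knockdown libraries lay below all 3 others, a change of -0.59 ± 0.053 (SE, adjusted p = 0.000156). DHCR7 fell from 27.5 ± 1.16 to 19.7 ± 0.823 FPKM (-0.46, adjusted p = 0.000296), MVK from 5.82 ± 0.324 to 4.52 ± 0.143 FPKM (-0.30, adjusted p = 0.00995), and SQLE from 40.2 ± 0.743 to 33.2 ± 1.04 FPKM (-0.27, adjusted p = 0.00102). NSDHL (-0.26, adjusted p = 0.00981), ACAT2 (-0.23, adjusted p = 0.0115), LSS (-0.23, adjusted p = 0.0283), MVD (-0.20, adjusted p = 0.0456), FDFT1 (-0.14, adjusted p = 0.00428) and FDPS (-0.13, adjusted p = 0.0124) were also lower. LBR was higher (0.17, adjusted p = 0.0423), although its groups overlapped. IDI1 (-0.04), TM7SF2 (-0.06) and SC5D (-0.10), which rose with both drugs, were not called (adjusted p = 0.369, 0.633 and 0.369). The call of MVD was lost with no filter on low values, after median-ratio rescaling, without a mean-variance trend, without RUNX1 shRNA replicate 1, without RUNX1 shRNA replicate 2, without non-targeting shRNA replicate 1, without non-targeting shRNA replicate 2 or without non-targeting shRNA replicate 3 (adjusted p = 0.0503 to 0.144). That of LSS was lost with no filter on low values, without RUNX1 shRNA replicate 1, without RUNX1 shRNA replicate 2, without non-targeting shRNA replicate 1 or without non-targeting shRNA replicate 3 (adjusted p = 0.0707 to 0.101). FDPS lost its call without a mean-variance trend or without non-targeting shRNA replicate 3 (adjusted p = 0.0541 and 0.052). LBR lost its call with no filter on low values, without a mean-variance trend, with the replicate block, without RUNX1 shRNA replicate 1, without RUNX1 shRNA replicate 2, without non-targeting shRNA replicate 1 or without non-targeting shRNA replicate 2 (adjusted p = 0.0688 to 0.133). EBP was called lower with the replicate block or without non-targeting shRNA replicate 1 (adjusted p = 0.0416 and 0.0467), HSD17B7 without a mean-variance trend or without RUNX1 shRNA replicate 2 (adjusted p = 0.045 and 0.0492), and PMVK without RUNX1 shRNA replicate 3 (adjusted p = 0.0445).

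Both INSIG genes fell with the RUNX1 shRNA. INSIG2 stood at 9.76, 9.29 and 10.1 FPKM with the non-targeting shRNA and 6.08, 4.23 and 6.03 with the RUNX1 shRNA. It had the largest change of the 37 genes (-0.75 ± 0.114 SE, adjusted p = 0.00211), with no overlap between groups. INSIG1 stood at 46.9, 44.8 and 46.9 FPKM with the non-targeting shRNA and 36.7, 36.2 and 36.8 with the RUNX1 shRNA. It changed by -0.33 ± 0.032 (SE, adjusted p = 0.000229), again with no overlap. SREBF2 stood at 39.5, 41.6 and 44.1 FPKM with the non-targeting shRNA and 44.3, 49.7 and 46.7 with the RUNX1 shRNA. It rose slightly (0.17, adjusted p = 0.0474), a call lost with no filter on low values, without a mean-variance trend, without RUNX1 shRNA replicate 2, without RUNX1 shRNA replicate 3, without non-targeting shRNA replicate 1 or without non-targeting shRNA replicate 2 (adjusted p = 0.0875 to 0.146). SREBF1 stood at 25.2, 26.8 and 28.7 FPKM with the non-targeting shRNA and 23.9, 25.1 and 29.7 with the RUNX1 shRNA, and SCAP at 20.7, 21.2 and 20.6 FPKM with the non-targeting shRNA and 20.4, 18.9 and 20.4 with the RUNX1 shRNA. Neither was called (-0.04 and -0.064, adjusted p = 0.74 and 0.313).

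None of the LXR genes was called in limma at an adjusted p of 0.05. NR1H2 stood at 22.9, 24.1 and 23.2 FPKM with the non-targeting shRNA and 22.6, 21.9 and 22.6 with the RUNX1 shRNA. NR1H3 stood at 2.09, 2.51 and 2.45 FPKM with the non-targeting shRNA and 1.48, 2.05 and 1.64 with the RUNX1 shRNA. The groups were apart for both, with changes of -0.065 (adjusted p = 0.24) and -0.30 (adjusted p = 0.0572). ABCG1 stood at 0.896, 1.06 and 0.999 FPKM with the non-targeting shRNA and 1.36, 1.23 and 1.31 with the RUNX1 shRNA, and its groups were apart, the knockdown being higher (0.21, adjusted p = 0.0843). Since ABCG1 passed the filter only through the group where it was higher, its call without a mean-variance trend (adjusted p = 0.019) is not taken as support for a difference. It was also called with no filter on low values (adjusted p = 0.0424), where that reason does not apply. Its values lay near 1 FPKM, and it was not called in the full fit. The NR1H3 change was called without a mean-variance trend, with the replicate block or without RUNX1 shRNA replicate 2 (adjusted p = 0.0244 to 0.0493). ABCA1 stood at 3.99, 3.47 and 3.77 FPKM with the non-targeting shRNA and 3.27, 3.89 and 3.49 with the RUNX1 shRNA. MYLIP stood at 16.6, 16.1 and 17.0 FPKM with the non-targeting shRNA and 16.0, 16.8 and 15.5 with the RUNX1 shRNA. Groups overlapped for both (adjusted p = 0.603 and 0.577). Of the fatty acid enzymes, FASN rose from 71.5 ± 2.08 to 82.9 ± 3.22 FPKM (0.21, adjusted p = 0.0038), SCD fell from 71.4 ± 1.47 to 60.4 ± 0.697 FPKM (-0.24, adjusted p = 0.000607), and FADS1 and FADS2 changed by 0.051 and -0.056 (adjusted p = 0.491 and 0.431).

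**Figure D5:**
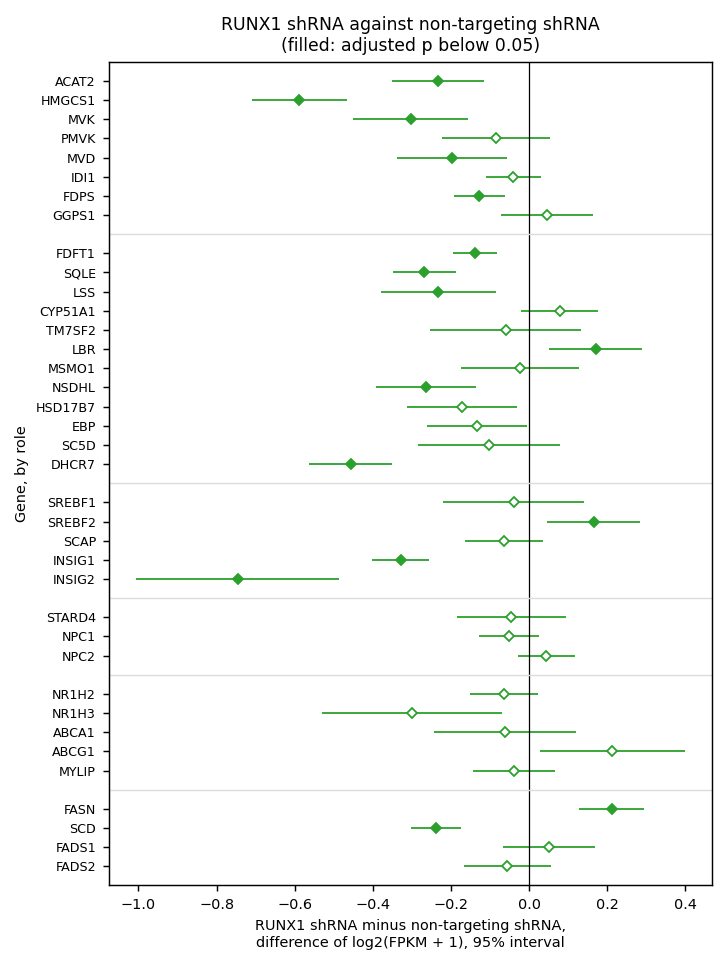
RUNX1 shRNA minus non-targeting shRNA in log2(FPKM + 1) with its 95% interval, genes ordered by role, filled where adjusted p is below 0.05. Of the 37 genes, 13 are called to the left of 0, led by INSIG2 (-0.75) and HMGCS1 (-0.59), and 3 to the right (LBR, SREBF2 and FASN).

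The drug and shRNA experiments have no library in common. RUNX1 RNA was not lower in the shRNA experiment alone. In limma it also fell after ARV-825, from 61.4 ± 2.09 to 36.2 ± 2.39 FPKM (-0.75 ± 0.068 SE, adjusted p = 2.38e-06). After OTX015 its change was -0.15 (adjusted p = 0.0668). Of the 13 genes that fell with the RUNX1 shRNA, 9 (69.2%) were among the 23 that rose after ARV-825 (ACAT2, HMGCS1, MVK, MVD, LSS, NSDHL, DHCR7, INSIG1 and SCD), near the 62.2% of all 37 genes that did so, and 2 (15.4%, against 16.2% of the 37) among the 6 that fell (SQLE and INSIG2). After OTX015, 3 of the 13 (23.1%, against 35.1%) rose (MVD, LSS and INSIG1) and 4 (30.8%, against 27%) fell (FDPS, FDFT1, SQLE and DHCR7). The experiments differ in length, 4 h against 72 h, and in delivery, and no difference between them was tested.

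The promoter windows were set beside these values. The 5 genes with no window, ACAT2, FDFT1, SQLE, ABCG1 and FASN, are left out of the members' counts. After ARV-825, ACAT2 and FASN rose, SQLE and ABCG1 fell, and FDFT1 was not called. After ARV-825, 19 of the 22 genes with a CCAAT box rose and 0 fell (median log2 change 0.48), and of the 10 genes without one, 2 rose and 4 fell (median -0.09). Of all tested genes with a window, 40.3% of 3688 with the box rose and 35.5% fell after ARV-825, and 32.8% of 4739 without it rose and 41.3% fell. After OTX015 the members' counts were 11 up and 4 down with the box and 1 up and 4 down without it, where all genes gave 40.6% up and 29.5% down with it and 33.2% and 35.7% without it. With the RUNX1 shRNA 1 rose and 9 fell with the box and 1 rose and 1 fell without it, beside 13.1% up and 14.4% down, and 13% and 13.4%, of all genes. The box was more frequent among mevalonate and sterol genes (14 of 17 with a window) than in the other roles (8 of 15). Within the other roles, all 8 genes with the box rose after ARV-825 (SREBF2, INSIG1, STARD4, NPC2, NR1H3, MYLIP, SCD and FADS2), while of the 7 without it 1 rose and 3 fell. The call of NR1H3 was lost in 5 of 13 alternatives. Among the mevalonate and sterol genes 11 of 14 with the box rose and 0 fell, and of the 3 without it 1 rose and 1 fell. After OTX015, 5 of the 8 rose and 1 fell, and 1 of the 7 rose and 3 fell. Of the mevalonate and sterol genes 6 of 14 with the box rose and 3 fell, and of the 3 without it 0 rose and 1 fell. With the RUNX1 shRNA 1 of the 8 rose and 2 fell, and 0 of the 7 rose and 1 fell. Of the 14 mevalonate and sterol genes with the box 0 rose and 7 fell, and of the 3 without it 1 rose and 0 fell. These splits were not tested. In SREBF2 the sterol element shown above begins at position -133 from the start site and the CCAAT box at -106.

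Other genes of the pathways are given by their counts and by up to 4 genes each with the largest called changes. The counts stand against 35.8% up and 38.4% down among all tested genes after ARV-825, 36.1% and 33.5% after OTX015, and 13.5% and 13.8% with the RUNX1 shRNA. Of 11 genes of SREBP processing, 3 rose and 7 fell after ARV-825 (27.3% and 63.6%, median -0.31, against -0.008 for all tested genes), 4 rose and 6 fell after OTX015 (36.4% and 54.5%, median -0.35, against 0.032), and 0 rose and 4 fell with the RUNX1 shRNA (0% and 36.4%, median -0.011, against -0.009). MBTPS2, the protease that makes the final cut of SREBP, fell from 5.78 ± 0.224 FPKM in control to 1.97 ± 0.235 after ARV-825 (-1.19, adjusted p = 2.05e-07) and 3.33 ± 0.192 after OTX015 (-0.65, adjusted p = 3.05e-05). ERLIN1, a partner of the SREBP and INSIG complex, fell from 63.0 ± 2.54 to 28.6 ± 1.17 FPKM after ARV-825 (-1.11, adjusted p = 1.71e-08).

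Of 12 genes of the isoprenoid branch, 1 rose and 6 fell after ARV-825 (8.33% and 50%), 3 rose and 4 fell after OTX015 (25% and 33.3%), and 2 rose and 0 fell with the shRNA (16.7% and 0%), with medians of -0.13, -0.03 and 0.015. The OTX015 falls and the shRNA rises lie near the background. RABGGTA, a subunit of the enzyme that prenylates Rab proteins, fell from 13.6 ± 0.345 to 5.31 ± 1.23 FPKM after ARV-825 (-1.23, adjusted p = 4.28e-06). NUS1, needed for dolichol synthesis, changed by -0.71 (adjusted p = 5.43e-06), and COQ2, of coenzyme Q synthesis, by -0.54 (adjusted p = 0.0004). PGGT1B, a subunit of another prenyltransferase, was lower with ARV-825 than with OTX015, with a difference of -0.79 (adjusted p = 1.9e-05).

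Of 13 genes of sterol storage and transport, 4 rose and 2 fell after ARV-825 (30.8% and 15.4%, median 0.11), 8 rose and 1 fell after OTX015 (61.5% and 7.69%, median 0.21), and 5 of 12 tested rose and 1 fell with the shRNA (41.7% and 8.33%, median 0.065). The ARV-825 rises lie near the background, and LIMA1, among the OTX015 rises, passed the filter only through that group. GRAMD1B, which carries cholesterol from the plasma membrane, changed by -0.99 (adjusted p = 7e-05) after ARV-825, and NCEH1, a cholesteryl ester hydrolase, by 0.95 (adjusted p = 1.1e-06). The sterol-binding protein OSBP rose after OTX015 from 12.8 ± 1.21 to 22.2 ± 0.894 FPKM (0.75, adjusted p = 1.85e-06).

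Among 10 LXR partners and further LXR targets, 9 were tested, of which 2 rose and 5 fell after ARV-825 (22.2% and 55.6%), 3 rose and 4 fell after OTX015 (33.3% and 44.4%, near the background), and 1 rose and 0 fell with the shRNA (11.1% and 0%), with medians of -0.17, 0.10 and 0.077. RXRA, the obligate partner of LXR, fell from 30.6 ± 1.04 to 14.5 ± 0.596 FPKM after ARV-825 (-1.03, adjusted p = 1.59e-08), as did the coactivator NCOA6 (-1.24, adjusted p = 5.11e-08). Between the drugs, the corepressor NCOR1 was lower with ARV-825 (-0.52, adjusted p = 0.00063) and SCARB1, a receptor for high-density lipoprotein, higher (0.58, adjusted p = 1.01e-05). Of 5 oxysterol enzymes, 0 reached a mean of 1 FPKM in either table, so none was tested.

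Of 19 further genes of fatty acid synthesis and activation, 16 were tested after the drugs, with 8 up and 3 down after ARV-825 (50% and 18.8%, median 0.17) and 8 up and 5 down after OTX015 (50% and 31.2%, median 0.15). Of the OTX015 rises, 1 was in a gene with a control mean under 1 FPKM. With the shRNA 17 were tested, with 2 up and 1 down (11.8% and 5.88%, median -0.0062). ELOVL6, which lengthens palmitate, fell after OTX015 from 7.68 ± 2.62 to 1.62 ± 0.318 FPKM (-1.69, adjusted p = 0.000594). ACSL5, an acyl-CoA synthetase, fell after OTX015 (-1.06, adjusted p = 3.62e-08). LPIN1, a phosphatidate phosphatase, rose after OTX015 (0.94, adjusted p = 2.07e-06), and ACSS2, which makes acetyl-CoA from acetate, rose after ARV-825 from 17.6 ± 2.23 to 33.4 ± 1.24 FPKM (0.90, adjusted p = 1.57e-06).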

How the data were processed

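RNA-seq values of protein-coding genes were taken from 2 tables, one for the 9 drug libraries and one for the 6 shRNA libraries. The deposited values were read as FPKM that the authors quantile normalized, going by the name of each table, so levels were not tested across tables. The unit was taken from the values and the tools named. TopHat2 2.0, Cufflinks 2.0 and the hg19 build are named per the submitters' processing notes, and the annotation and strand setting are not given in the sources used here. Read depth is unknown, so no counting interval was computed. Quantile normalization can remove a global shift between libraries, yet medians and sums of the listed genes still differed between libraries, so these genes do not share 1 distribution. Of 19620 entries per table, 16 pseudoautosomal copies were left out, and 19313 IDs matched symbols.

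Genes whose mean reached 1 FPKM were tested as log2(FPKM + 1) with limma 3.58.1 in R 4.3.3 (trend, two-sided, Benjamini-Hochberg over all tested genes, threshold 0.05). The pseudocount of 1 understates changes of low genes. The 9 drug libraries shared 1 fit with 3 contrasts and the 6 shRNA libraries had their own, both tested on simulated data. For ARV-825 against control, 50% of simulated 1.25-fold changes and 88% of 1.5-fold changes were recovered. For the RUNX1 shRNA these shares were 46% and 80%, so a small change can go uncalled. Groups follow the treatment labels. The replicate number did not pair libraries: correlations of same-numbered deviations ran from -0.32 to 0.061. Alternatives were pseudocount, filter, scaling, trend, the block, the libraries in the fit and each replicate left out. The members and lists were chosen with earlier results of these data known. Per-library values were given for SREBP and LXR members and for members called with a log2 change of at least 0.5, and other pathway genes were named by largest called change, at most 4 per list, of which some are not reported here. A planned comparison of protein sequences was not run.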

Additional observations from a re-analysis of the deposited data

How the results depend on the processing

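Over the alternatives, 1875 values of single genes were recomputed: 1790 kept their side of the threshold, 63 lost the call and 22 gained it. Of the values called in the full fit or in the alternative, 0 reversed direction. Some genes called in neither did change sign, such as PMVK after ARV-825 (-0.076 to 0.054). A call held in every alternative that tested the gene for 26 of 29 genes after ARV-825 and 19 of 23 after OTX015. The same held for 25 of 27 between the drugs and 11 of 16 with the RUNX1 shRNA. Leaving out 1 library gave 27 to 31, 20 to 23, 25 to 27 and 13 to 16 called members. The members that rose with the RUNX1 shRNA numbered 3 in the full fit and 1 to 3 with 1 library left out, the 1 being without RUNX1 shRNA replicate 2, non-targeting shRNA replicate 1 or non-targeting shRNA replicate 2. Without ARV-825 replicate 1, the falls after ARV-825 went from 6 to 9. All genes called with the RUNX1 shRNA went from 2988 to 1997 without non-targeting shRNA replicate 3. With a mean of at least 5 FPKM, 34 members were tested. In the drug fit MVK and ABCG1, called after ARV-825 and between the drugs, were then not tested. Median-ratio rescaling moved the median of the members after OTX015 from 0.018 to -0.01. With the replicate number as a block, although the numbers do not pair the libraries, the called members were 29 after ARV-825, 21 after OTX015, 26 between the drugs and 17 with the RUNX1 shRNA, the latter with 2 higher and 15 lower. Without a trend, and with no filter, 2 members were higher with the RUNX1 shRNA. With 3 libraries per group and unknown depth, the counting error of low genes such as NR1H3, MVK and ABCG1 could not be given.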
